A study of Mus musculus with 12 samples.

Results

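The insulin signalling and glucose-responsive genes described here are 10 genes: Insr, Irs1, Irs2, Foxo1, Txnip, Arrdc4, Slc2a1, Hk1, Hk2 and Pdk4. They were taken by symbol from a list chosen with earlier results of these data known, and looked up in the deposited count tables of mouse glomeruli. The tables of the STZ arm listed all 10 of them among 16293 genes. The tables of the baseline arm listed 9 among 13480 genes, without Hk2. The arms had 13475 genes in common, 9 of them members of the set.

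RNA was sequenced from glomeruli of C57BL/6 mice, collected after perfusion of magnetic beads through the heart, in 4 groups of 3 different mice. Controls and podocyte-specific DACH1 KO mice (podocytes are the epithelial cells that wrap glomerular capillaries) were taken without treatment at 10 weeks of age. Mice of both genotypes were also given streptozotocin (STZ), which destroys pancreatic beta cells and leaves mice short of insulin, at 50 µg per g body weight per day on 5 days, with RNA taken 10 days later. The age of the STZ mice, the alleles, the promoter that removes Dach1 in podocytes, and any vehicle given to baseline mice are not given in the labels, and the titles of the control STZ libraries carry a code (hetN) whose meaning the labels do not give.

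Insulin binds its receptor (Insr), which phosphorylates the adaptors Irs1 and Irs2, and these pass the signal to PI3 kinase and Akt. Akt keeps the transcription factor Foxo1 out of the nucleus, so low insulin lets Foxo1 act on its target genes, among them Irs2 and Pdk4 in several tissues. Glucose acts by a separate route: glucose phosphates activate the MondoA and ChREBP factors, which induce Txnip and Arrdc4, and podocytes need insulin receptor signalling to keep the filtration barrier intact.

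Levels of different genes were compared in CPM, the count scaled to a fixed library total after TMM, per kilobase of exon. Txnip was the most abundant by a wide margin, with a median over the 12 libraries of 423 CPM per kb (298 to 528), and no library of any other member came above 22.4. Hk1 followed with a median of 19.3 CPM per kb, then Foxo1 with 12.6, Slc2a1 with 11.7, Insr with 9.58, Arrdc4 with 7.71, Pdk4 with 6.45 and Irs1 with 5.23. Each of these overlapped its neighbour in that order across libraries, so only the 2 ends of the order stood apart. Irs2 had a median of 1.69 CPM per kb (0.834 to 3.66) and overlapped Irs1 (3.17 to 7.24). Hk2, measured in the 6 STZ libraries, was the lowest at 0.42 CPM per kb (0.354 to 0.484).

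The STZ libraries were deeper than the baseline libraries, with 6.61e+07 to 7.86e+07 counts against 2.26e+07 to 2.49e+07. The tables of the arms also list different genes after unequal filters, so STZ and anything else that differed between the arms cannot be told apart. Dach1 was at 47.2 to 67.0 CPM in the 6 knockout libraries and at 106 to 188 CPM in the 6 control libraries, without overlap. Podocyte markers were the highest of the marker lists in 11 of 12 libraries, and in knockout baseline replicate 3 proximal tubule markers summed to 28095 CPM against 18158 CPM for podocyte markers. Sex, read from Xist and Ddx3y, was female in 4 of 6 baseline libraries and in 1 of 6 STZ libraries, so sex and arm were partly aligned. No listed marker was at 0 in any library. The deposited tables held no value of 0 for any gene, so this says nothing about the cells present.

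**Figure D1:**
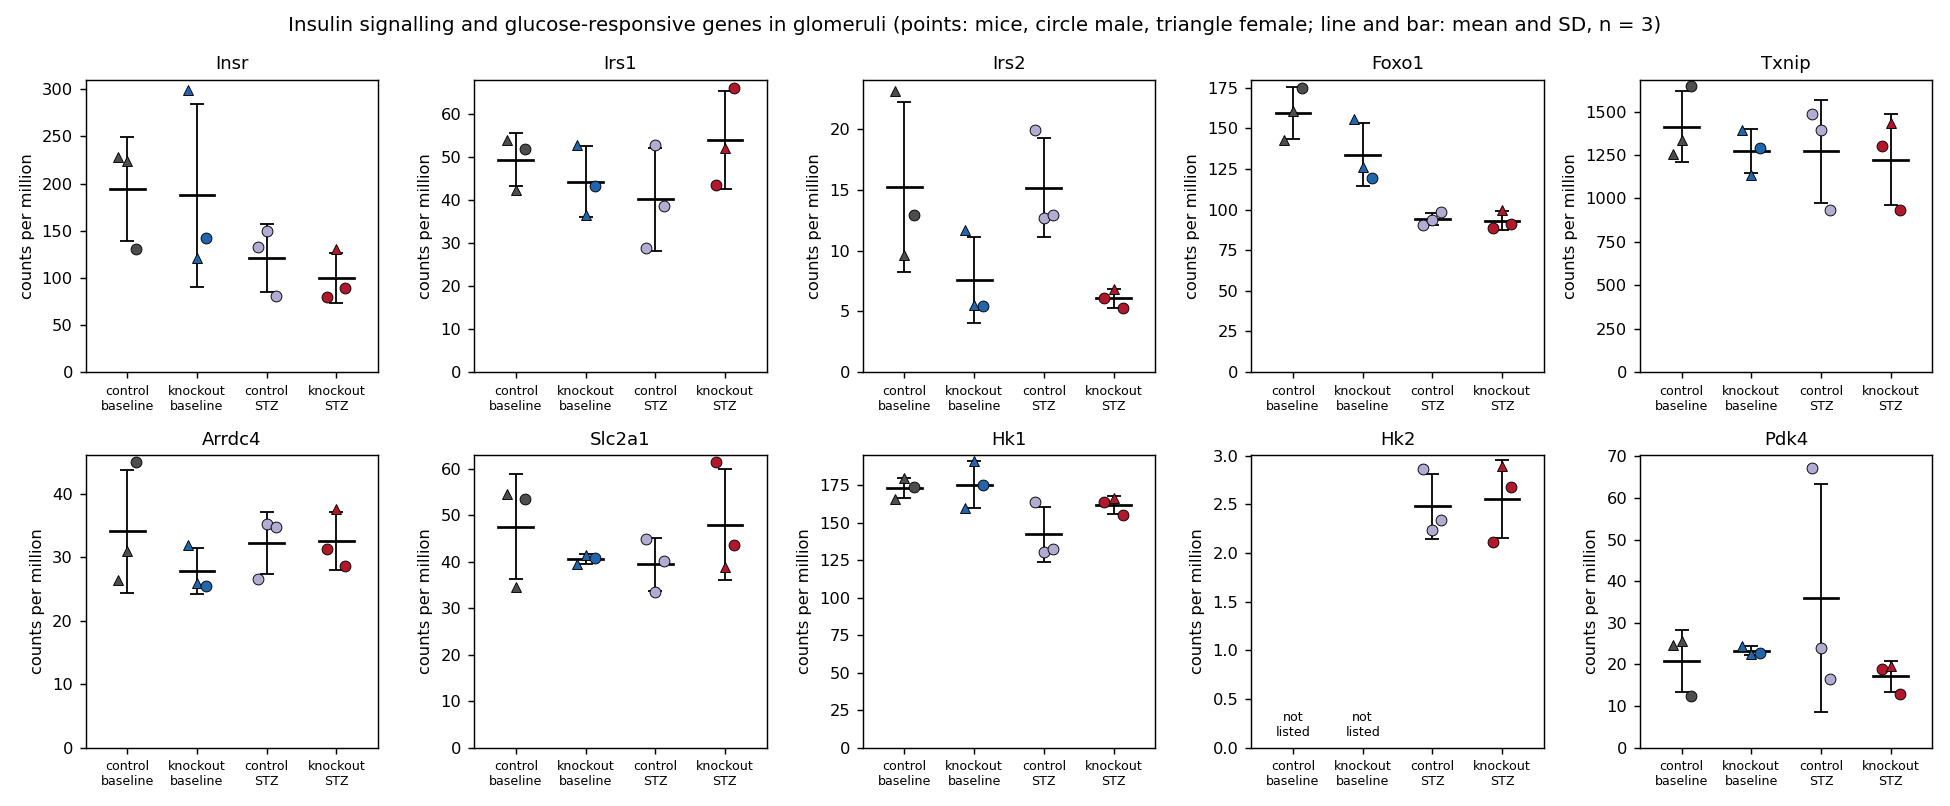
Levels in CPM of the 10 genes (vertical axes from 0, 1 panel per gene) in the 4 groups, with 1 point per mouse (circles male, triangles female) and a line and bar for the mean and SD of 3 mice. Foxo1 lies between 119 and 175 CPM at baseline and between 88.7 and 99.7 CPM after STZ, and Irs2 is low in the knockout groups.

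Over all 12 libraries 2 of the 9 genes changed, each in 1 comparison. Foxo1, the FoxO factor restrained by insulin, fell after STZ to 0.641-fold of its baseline level in a fit with genotype as a term. Irs2, an adaptor of the insulin receptor, fell in Dach1 knockouts to 0.445-fold of the control level in a fit with arm as a term. Txnip and Arrdc4, the genes best known to follow glucose, did not pass the test in any comparison. In the STZ comparison 1 of 9 genes was called (adjusted p under 0.05 in edgeR's quasi-likelihood test), beside a background of 8.68% of the 13475 genes tested. In the knockout comparison 1 of 9 was called, beside a background of 2.82%. With 1 call each, neither count stands out from its background.

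**Figure D2:**
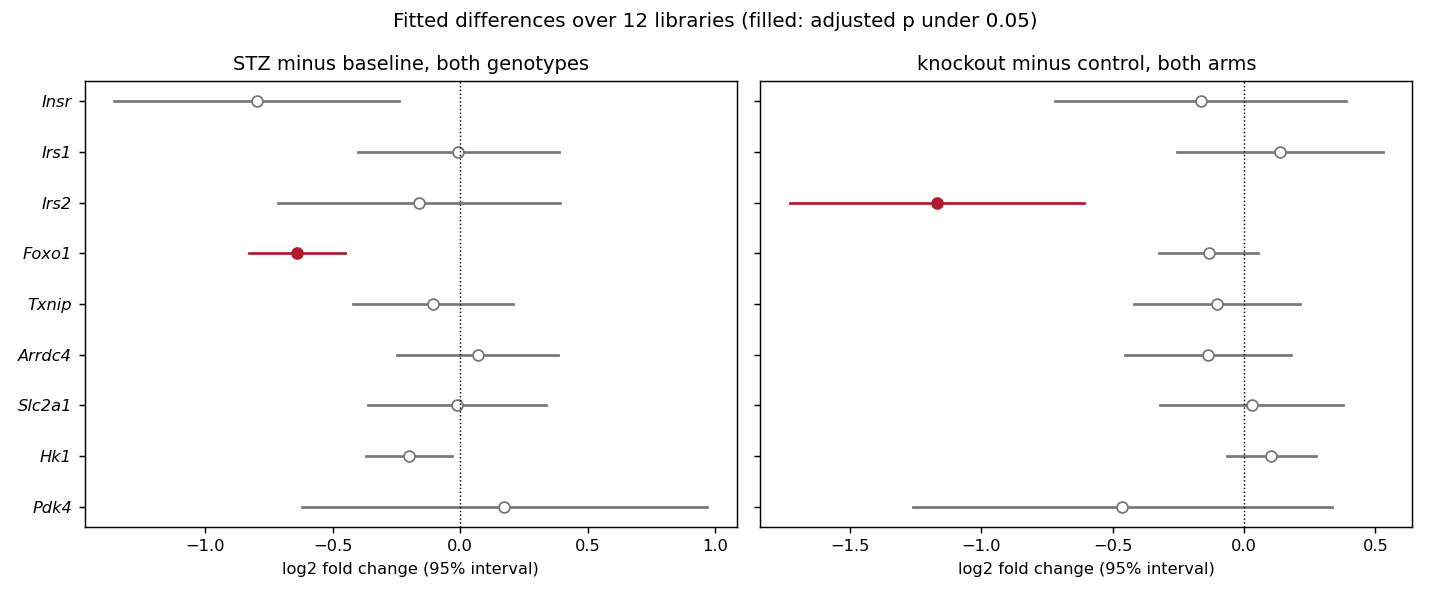
Log2 fold change of the 9 genes listed in both arms (points) with 95% intervals (bars), for STZ minus baseline with genotype as a term and for knockout minus control with arm as a term. Filled points passed an adjusted p of 0.05: Foxo1 at -0.64 on the left and Irs2 at -1.17 on the right.

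Insr encodes the insulin receptor, a membrane tyrosine kinase, and lies on chromosome 8 from 3150922 to 3279649 on the minus strand (all positions here are from RefSeq on GRCm38.p6). Its level was 228, 224 and 131 CPM in control mice and 299, 122 and 142 CPM in knockouts at baseline. After STZ it was 132, 150 and 80.5 CPM in controls and 79.3, 130 and 89.6 CPM in knockouts. The 3 highest values of all came from baseline females, and the other 3 baseline libraries lay inside the STZ range. The STZ difference was -0.80 on the log2 scale (SE 0.25, 95% interval -1.36 to -0.24) and did not pass (adjusted p = 0.0741). It passed in DESeq2 (adjusted p = 0.0203) and with the proximal tubule markers as a covariate (adjusted p = 0.0131), but with sex as a covariate it was -0.49 (adjusted p = 0.377), and with the endothelial markers as a covariate its sign turned (0.06, adjusted p = 0.919). The knockout difference was -0.16 (adjusted p = 0.841).

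Irs1 and Irs2 are the adaptors that dock PI3 kinase on the activated receptor. Irs1 lies on chromosome 1 from 82233105 to 82291439 and Irs2 on chromosome 8 from 10984681 to 11008929, both on the minus strand. Irs2 was at 23.1, 9.64 and 12.96 CPM in controls and 11.7, 5.56 and 5.48 CPM in knockouts at baseline. After STZ it was at 19.96, 12.7 and 12.9 CPM in controls and 6.10, 6.82 and 5.27 CPM in knockouts. The genotypes did not overlap after STZ, whereas at baseline knockout replicate 1 lay above control replicate 2. These levels came from 121 to 534 counts per library at baseline and 383 to 1425 after STZ.

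The Irs2 difference between knockout and control was -1.17 on the log2 scale with arm as a term (SE 0.26, 95% interval -1.73 to -0.61, adjusted p = 0.0302). Lower calls made up 1.31% of all genes in that comparison. At baseline alone it was -1.01 (SE 0.44, adjusted p = 0.743) and after STZ alone -1.32 (SE 0.23, adjusted p = 0.0579). Neither arm passed by itself in edgeR without a covariate. After STZ Irs2 passed with the proximal tubule markers as a covariate (-1.32, adjusted p = 0.0266) and in DESeq2 (adjusted p = 1.32e-05). With sex as a covariate it did not pass there (-1.43, adjusted p = 0.155). The interaction was -0.32 (adjusted p = 0.975), and 6.27% of all genes were lower in knockouts without overlap after STZ. The call over both arms was not secure against single libraries: 3 of 12 fits that left 1 library out still passed, with values of -1.385 to -1.005 and adjusted p of 0.00656 to 0.0890. Those that passed were the fits without control baseline replicate 2, control baseline replicate 3 or knockout baseline replicate 1.

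Podocyte markers moved with genotype as well. Of 8 markers 3 fell in knockouts and none rose, and their sum was 18158 to 22318 CPM in knockout and 20074 to 27459 CPM in control libraries at baseline, and 30481 to 31954 against 29436 to 36030 CPM after STZ. With the mean podocyte marker level as a covariate the Irs2 difference was -0.71 (adjusted p = 0.305), and in the 7 male libraries alone it was -1.37 (adjusted p = 0.0648). The Irs2 call over both arms was kept with sex (-1.24, adjusted p = 0.0299) or proximal tubule markers (-1.09, adjusted p = 0.00850) as a covariate. It was also kept with endothelial (-1.02, adjusted p = 0.0273) or mesangial markers (-1.17, adjusted p = 0.0466). In bulk glomeruli, fewer cells of a type and less RNA per cell cannot be told apart.

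Irs1 showed no such difference. Its level was 54.1, 42.4 and 52.0 CPM in controls and 53.0, 36.5 and 43.4 CPM in knockouts at baseline, and 29.0, 52.9 and 38.8 CPM against 43.7, 52.3 and 66.2 CPM after STZ. All 4 groups overlapped. The knockout difference was 0.14 on the log2 scale (95% interval -0.26 to 0.53, adjusted p = 0.814), an interval that lies above that of Irs2, although the difference between these 2 genes was not itself tested. The STZ difference of Irs1 was -0.01 (95% interval -0.40 to 0.39) and that of Irs2 was -0.16 (95% interval -0.71 to 0.39).

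The promoters of both adaptors are shown because they share a pair of motifs found close together in few promoters. Capitals mark CACGTG, the E-box bound by several helix-loop-helix factors, and TGTTTTG, a FoxO-type motif; in Irs1 the 2 motifs overlap. The windows are chr1:82291510-82291589 for Irs1 and chr8:11008930-11009006 for Irs2, both on the minus strand (RefSeq starts, GRCm38.p6).
Irs1: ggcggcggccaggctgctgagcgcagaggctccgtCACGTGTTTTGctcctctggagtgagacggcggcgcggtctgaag
Irs2: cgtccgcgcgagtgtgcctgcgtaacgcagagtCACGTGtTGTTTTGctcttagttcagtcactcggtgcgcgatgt
Each motif was searched on both strands in the 250 bases before the start. CACGTG was in 6.02% and TGTTTTG in 5.56% of 32851 RefSeq promoters, and 15 promoters (0.0457%) held the 2 starting within 20 bases of each other, a rule set after these sequences had been seen. A match is a description of letters and not a binding site.

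Foxo1 is the FoxO factor through which insulin restrains its target genes, and it lies on chromosome 3 from 52268337 to 52350109 on the plus strand. At baseline it was at 143, 161 and 175 CPM in controls and 156, 127 and 119 CPM in knockouts. After STZ it was at 90.8, 93.3 and 98.4 CPM in controls and 88.7, 99.7 and 90.9 CPM in knockouts. All 6 STZ libraries lay below all 6 baseline libraries, and 2.48% of all genes showed that pattern. The spread was also narrow after STZ, with a mean of 94.2 ± 3.85 CPM (SD, n = 3) in controls and 93.1 ± 5.87 CPM (SD, n = 3) in knockouts, against 159 ± 16.2 and 134 ± 19.3 CPM at baseline.

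The STZ difference of Foxo1 was -0.64 on the log2 scale (SE 0.09, 95% interval -0.83 to -0.45, adjusted p = 0.00254), and lower calls made up 3.88% of all genes. The call held in each of the 12 fits that left out 1 library, with values of -0.71 to -0.60. Within controls the difference was -0.79 (SE 0.11, adjusted p = 0.0745) and within knockouts -0.55 (SE 0.15, adjusted p = 0.181), neither of which passed in edgeR without a covariate. DESeq2 called both (adjusted p = 8.90e-07 and 0.0287), and with the proximal tubule markers as a covariate the difference in knockouts passed (-0.62, adjusted p = 0.0393). The interaction was 0.24 (95% interval -0.13 to 0.60, adjusted p = 0.975). No difference between genotypes passed: it was -0.25 in untreated mice (adjusted p = 0.802) and -0.01 in STZ mice (adjusted p = 0.998).

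The makeup of the glomerular RNA differed between the arms in the same libraries. The 6 mesangial markers summed to 2371 to 3311 CPM at baseline and 1127 to 2092 CPM after STZ, and 5 of 6 fell. The 8 endothelial markers summed to 7928 to 10663 CPM at baseline and 5155 to 8734 CPM after STZ, and 3 of 8 fell. The 8 podocyte markers summed to 18158 to 27459 CPM at baseline and 29436 to 36030 CPM after STZ, and 3 of 8 rose. The macrophage and leukocyte markers, of which 5 of 6 were listed in both arms, moved most: all 5 rose, with a median log2 difference of 2.15, and their sum was 43.7 to 71.8 CPM at baseline and 84.6 to 582 CPM after STZ, without overlap. Their part in the Foxo1 difference was not tested. With the other lists as covariates the Foxo1 difference was -0.66 for mesangium (adjusted p = 1, in a fit that called 7 genes in all), -0.56 for endothelium (adjusted p = 0.0516) and -0.80 for podocytes (adjusted p = 0.0369). It was -0.60 with sex as a covariate (adjusted p = 0.0208) and -0.67 among males alone (adjusted p = 0.281, in a fit that called 7 genes in all). The size of the difference thus ran from -0.80 to -0.56 over these fits, and 3 of them lost the call.

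**Figure D3:**
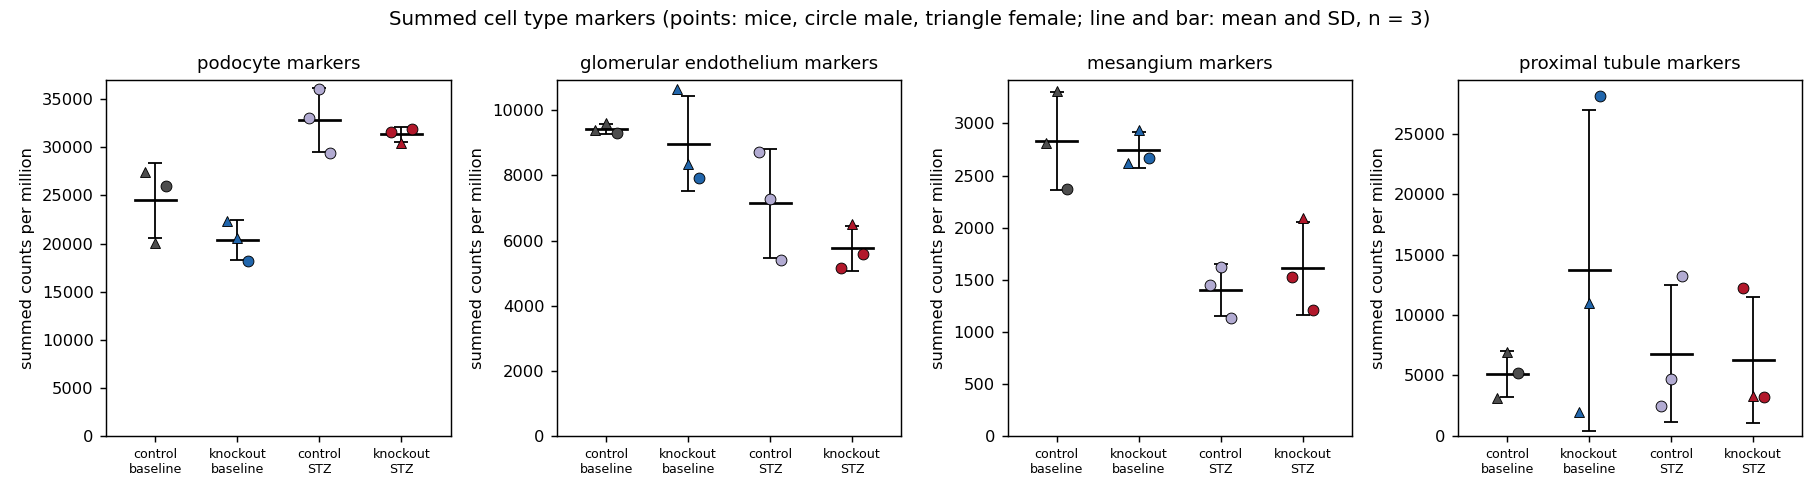
Summed CPM of the podocyte, endothelial, mesangial and proximal tubule markers (vertical axes from 0) in the 4 groups, 1 point per mouse (circles male, triangles female), with a line and bar for the mean and SD of 3 mice. Mesangial sums lie at 2371 CPM or above at baseline and at 2092 CPM or below after STZ.

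**Figure D4:**
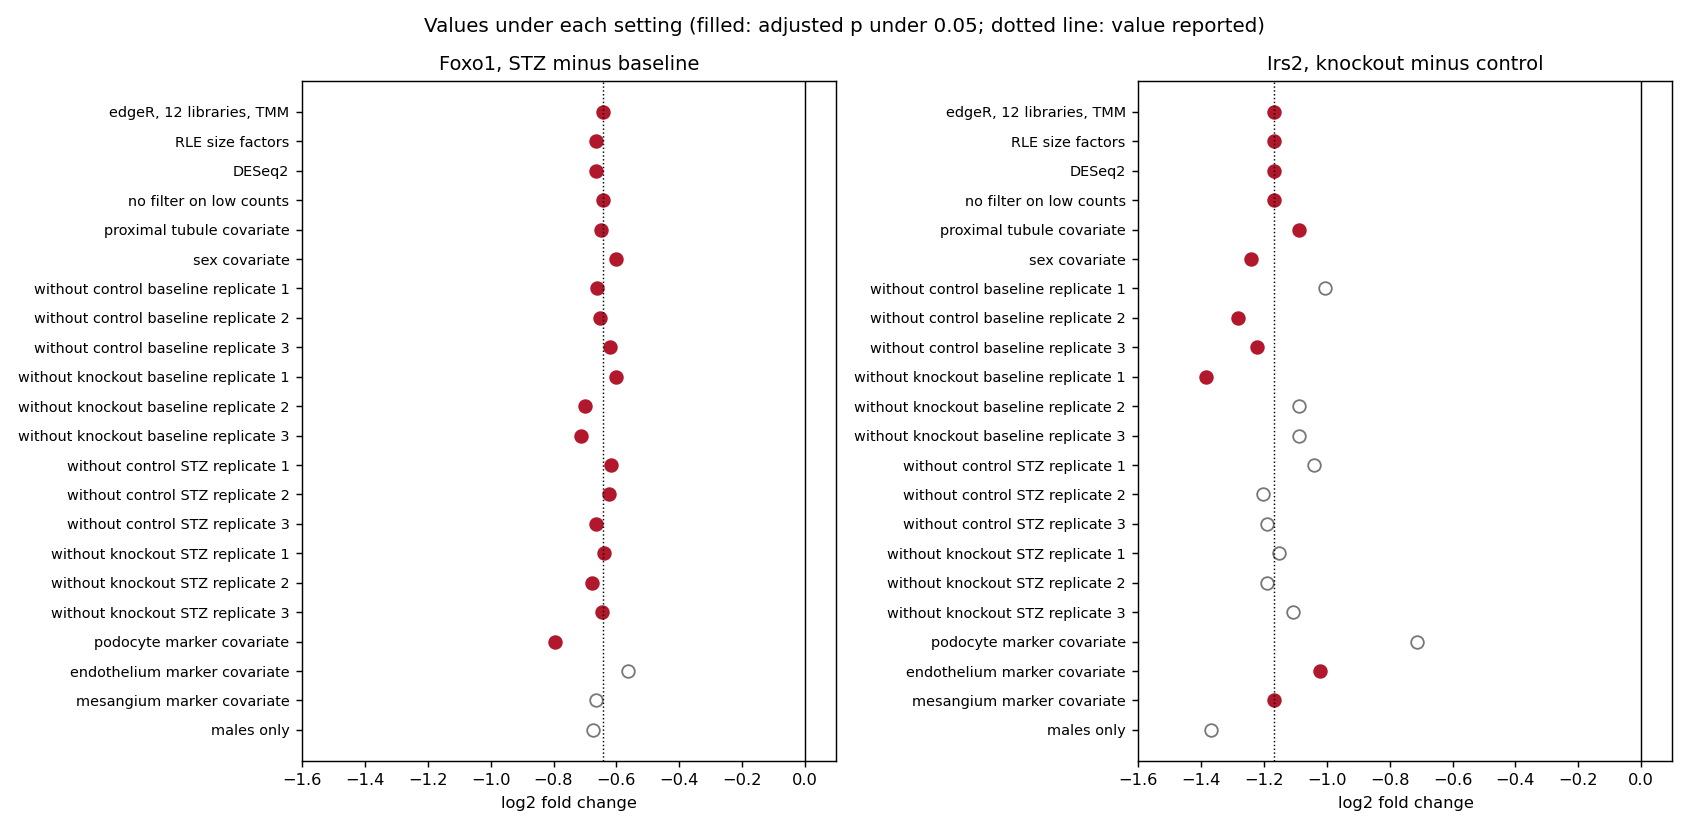
Log2 fold change (horizontal axes) of Foxo1 after STZ and of Irs2 in knockouts under each setting (rows). Filled points passed an adjusted p of 0.05: all fits of Foxo1 that left out 1 library did, and 3 of 12 did for Irs2.

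Txnip and Arrdc4 are alpha-arrestins induced by glucose through MondoA and ChREBP, and Txnip restrains glucose uptake and thioredoxin. Txnip lies on chromosome 3 from 96557957 to 96561857 (plus strand) and Arrdc4 on chromosome 7 from 68736994 to 68749238 (minus strand). Txnip was at 1259, 1337 and 1648 CPM in controls and 1392, 1136 and 1294 CPM in knockouts at baseline, and at 1485, 1397 and 934 CPM against 1302, 1436 and 932 CPM after STZ. The STZ range held 5 of the 6 baseline values, with the 2 lowest values of all among the STZ mice and the highest in a baseline control. The STZ difference was -0.11 on the log2 scale (95% interval -0.42 to 0.21, adjusted p = 0.716).

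Arrdc4 was at 26.4, 31.0 and 45.02 CPM in controls and 32.0, 26.0 and 25.5 CPM in knockouts at baseline, and at 26.5, 35.2 and 34.8 CPM against 31.3, 37.6 and 28.7 CPM after STZ. All 4 groups overlapped. Its STZ difference was 0.07 (95% interval -0.25 to 0.38, adjusted p = 0.826). In knockouts Txnip differed from controls by -0.10 (adjusted p = 0.825) and Arrdc4 by -0.14 (adjusted p = 0.775). No measure of blood glucose was analysed here, so these intervals stand without a check of how diabetic each mouse was.

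The promoter windows of both alpha-arrestins are shown because they hold E-box letters, the kind of motif that MondoA and ChREBP bind. Capitals mark CACGTG in Arrdc4, and in Txnip a pair of E-boxes 5 bases apart that differs from CACGTG at 2 of 12 letters, preceded by TGTTTAC, a FoxO motif, read on the other strand. The search for the pair had no match in the Arrdc4 promoter window, which says only that these letters are not there. The windows are chr3:96557816-96557908 for Txnip (plus strand) and chr7:68749406-68749451 for Arrdc4 (minus strand), from RefSeq on GRCm38.p6.
Txnip: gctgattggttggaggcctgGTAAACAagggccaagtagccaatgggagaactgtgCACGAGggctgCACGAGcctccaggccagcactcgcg
Arrdc4: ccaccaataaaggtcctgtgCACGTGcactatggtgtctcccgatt
Such a pair, with at most 2 letters differing, was in 0.779% of the 32851 promoters and TGTTTAC in 3.17%.

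Slc2a1 encodes GLUT1, the main basal glucose transporter of many cells, on chromosome 4 from 119108745 to 119137330 (plus strand). It was at 54.6, 34.5 and 53.5 CPM in controls and 39.4, 41.4 and 40.8 CPM in knockouts at baseline, and at 44.8, 33.4 and 40.2 CPM against 61.4, 38.9 and 43.6 CPM after STZ. The groups overlapped throughout, with the single highest value in a knockout STZ mouse. The STZ difference was -0.01 (95% interval -0.36 to 0.34, adjusted p = 0.974) and the knockout difference 0.03 (95% interval -0.32 to 0.38, adjusted p = 0.960).

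Hk1 and Hk2 encode hexokinases, which phosphorylate glucose as it enters the cell; Hk1 is the widely expressed form and Hk2 the one induced by insulin in muscle and fat. Hk1 lies on chromosome 10 from 62268855 to 62379920 and Hk2 on chromosome 6 from 82725025 to 82774454, both on the minus strand. Hk1 was at 166, 180 and 174 CPM in controls and 160, 191 and 175 CPM in knockouts at baseline, and at 164, 130 and 132 CPM against 164, 167 and 155 CPM after STZ. Control STZ libraries lay below control baseline libraries, by a narrow margin, while knockouts overlapped; 8.75% of all genes were lower without overlap in that comparison of controls. The STZ difference of Hk1 was -0.20 (SE 0.08, 95% interval -0.37 to -0.03) and did not pass (adjusted p = 0.130).

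Hk2 was listed in the STZ tables only, at 2.86, 2.24 and 2.34 CPM in controls and 2.11, 2.89 and 2.67 CPM in knockouts, from 158 to 226 counts per library. The genotypes overlapped and differed by 0.05 on the log2 scale (95% interval -0.41 to 0.50, adjusted p = 0.995). At the mean STZ level of 2.52 CPM a baseline library would hold 57.0 to 62.8 counts. No gene in the STZ tables stayed below 100 counts in every library and 362 genes in the baseline tables did. A gene at such counts could thus be listed at baseline, but how those tables were filtered was not established here. Hk2 not being listed at baseline therefore gives no level there.

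Pdk4 encodes a kinase that switches off pyruvate dehydrogenase and so spares glucose, a FoxO target raised by fasting in muscle and liver, on chromosome 6 from 5483351 to 5496278 (minus strand). It was at 24.7, 25.6 and 12.3 CPM in controls and 24.5, 22.6 and 22.6 CPM in knockouts at baseline, and at 67.3, 24.1 and 16.5 CPM against 19.0, 19.6 and 12.95 CPM after STZ. One mouse, control STZ replicate 1, stood far above the other 11. In that library macrophage and leukocyte markers (5 of 6 listed) summed to 582 CPM, against 84.6 to 275 CPM in the other STZ libraries and 43.7 to 71.8 CPM at baseline; the part of those cells in the Pdk4 value was not tested. The same library also had the highest sum of the 2 listed adipocyte markers, Plin1 and Fabp4, 513 CPM against 105 to 290.3 CPM in the other 11 libraries. Adipoq and Cidec were not listed in both arms. In every comparison the log2 fold changes of Plin1 and Fabp4 had opposite signs, so their sum may follow only 1 of them. The part of adipocytes in the Pdk4 value was not tested either. After STZ the knockout difference was -1.07 (SE 0.52, adjusted p = 0.652), and it was -0.24 (adjusted p = 0.830) without that library. The knockout STZ group lay below the knockout baseline group without overlap, as 9.59% of all genes did, at -0.46 (adjusted p = 0.314). The STZ difference over both genotypes was 0.17 (95% interval -0.62 to 0.97, adjusted p = 0.827).

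In the comparisons with 3 mice against 3, and in the interaction, none of the members passed in edgeR without a covariate. With the proximal tubule markers as a covariate Irs2 passed for the knockout after STZ and Foxo1 for STZ in knockouts. The backgrounds of called genes were 0.23% for the knockout at baseline, 1.07% for the knockout after STZ, 0.23% for STZ in controls, 0.178% for STZ in knockouts and 0.00742% for the interaction. At an unadjusted p under 0.05, 0 of 9 members were past the limit for the knockout at baseline, 1 of 10 after STZ, 3 of 9 for STZ in controls, 2 of 9 for STZ in knockouts and 0 of 9 for the interaction. The matching shares of all genes were 6.92%, 9.08%, 12.6%, 14.7% and 3.68%. Over all 12 libraries 3 of 9 members were past that limit for STZ, beside 25% of all genes, and 1 of 9 for the knockout, beside 12.9%. DESeq2 called 0, 1, 1, 1 and 0 members in these 5 comparisons. The median log2 fold change of the members was -0.11 for STZ over both genotypes, beside 0.03 over all genes, and -0.13 for the knockout over both arms, beside 0.00.

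Other genes of these pathways were taken from 8 lists holding 124 genes, of which 115 were listed in both arms and tested. After STZ, with genotype as a term, 2 of them rose and 3 fell (4.35%, beside 8.68% of all genes). In knockouts, with arm as a term, 1 rose and 1 fell (1.74%, beside 2.82%). Neither share was above its background.

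Among 23 genes from the insulin receptor to Akt and its brakes, 1 fell in knockouts and none passed after STZ. The gene was Tbc1d1, a Rab GTPase-activating protein that Akt and AMPK phosphorylate to release glucose transporters. It was at 226, 194 and 234 CPM in controls and 114, 132 and 128 CPM in knockouts at baseline, and at 246, 227 and 230 CPM against 134, 131 and 163 CPM after STZ. All 6 knockout libraries lay below all 6 control libraries, as for 1.06% of all genes. Tbc1d1 did not pass at baseline alone or after STZ alone in edgeR without a covariate. With arm as a term the difference was -0.76 (SE 0.08, adjusted p = 0.000261) and passed in all 12 fits that left out 1 library. It was -0.72 with the podocyte markers as a covariate (adjusted p = 0.0103). In males alone it was -0.72 and did not pass (adjusted p = 0.0867). After STZ the smallest p in this list belonged to Pik3r1, the regulatory subunit of PI3 kinase (-0.43, adjusted p = 0.0519), and Igf2r (0.24, adjusted p = 0.0625), neither of which passed. The list's median was -0.09 after STZ and -0.06 in knockouts.

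The FoxO factors and target genes had 19 of 20 members tested. Cited2, a transcriptional co-regulator induced by FoxO factors and by hypoxia, rose in knockouts. It was at 105, 88.7 and 105 CPM in controls and 150, 131 and 150 CPM in knockouts at baseline, and at 76.7, 77.7 and 61.5 CPM against 243, 178 and 242 CPM after STZ. The genotypes did not overlap in either arm; 4.98% of all genes were higher in knockouts without overlap at baseline and 8.62% after STZ. Its knockout difference was 1.08 with arm as a term (SE 0.19, adjusted p = 0.00925) and 1.62 after STZ alone (SE 0.17, adjusted p = 0.0116), where 3 of 6 fits that left out 1 library still passed. In males alone the difference with arm as a term was 1.40 (adjusted p = 0.0885). The adjusted p of the 6 fits after STZ was 0.0211 to 0.0670, and the call was lost without knockout STZ replicate 1, knockout STZ replicate 3 or control STZ replicate 2. At baseline alone Cited2 differed by 0.53 (adjusted p = 0.256), and the interaction of 1.09 did not pass (adjusted p = 0.319).

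Cdkn1b, the cell cycle inhibitor p27 and a FoxO target, was at 63.1 to 89.5 CPM at baseline and 45.5 to 80.6 CPM after STZ. The arms overlapped through control STZ replicate 2, at 80.6 CPM. Its STZ difference was -0.48 on the log2 scale (SE 0.11, adjusted p = 0.0276). That call was kept in 5 of 12 fits that left out 1 library (adjusted p of 0.00548 to 0.0765) and lost with sex as a covariate (adjusted p = 0.136). It was also lost with the markers that moved with the arm as covariates: Cdkn1b differed by -0.14 with mesangial (adjusted p = 1), -0.34 with endothelial (adjusted p = 0.270) and -0.62 with podocyte markers (adjusted p = 0.117), and by -0.44 in males alone (adjusted p = 0.578). Cdkn1b kept its call with the proximal tubule markers as a covariate (-0.48, adjusted p = 0.0167). Mesangial and podocyte sums did not overlap between the arms, so as covariates they nearly stand in for the arm. Males alone hold 1 baseline library of each genotype. A call lost in those fits, here, for Foxo1 above or for Slc2a10, Slc5a1, Aldoc and Pfkfb4 below, is thus hard to read. Endothelial sums did overlap between the arms. With them as a covariate the calls of Cdkn1b, Foxo1, Slc2a10, Aldoc and Pfkfb4 were lost too, and that of Slc5a1 was kept. The part of cell makeup in these calls was not tested. The classical hepatic FoxO targets of glucose production, Pck1 (-1.53, adjusted p = 0.0823) and G6pc (-1.14, adjusted p = 0.234), did not pass after STZ. Pck1 is also one of the proximal tubule markers used here. The median of the list was -0.07 after STZ and -0.06 in knockouts.

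Among 11 genes of the mTOR branch, Deptor, an inhibitor bound to mTOR, fell in knockouts after STZ. It was at 34.4, 42.5 and 41.1 CPM in control STZ and 24.4, 21.4 and 20.2 CPM in knockout STZ mice, without overlap, as for 6.27% of all genes (-0.83, SE 0.13, adjusted p = 0.0437). None of 6 fits without 1 library kept that call (adjusted p of 0.0605 to 0.225), and at baseline the difference was 0.07 (adjusted p = 0.973). After STZ against baseline none passed; the smallest p was that of Mlst8 (0.19, adjusted p = 0.113).

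The glucose transporters (12 tested) had 2 genes that fell after STZ and none that changed in knockouts. Slc2a10, which encodes GLUT10, was at 7.37 to 11.0 CPM in baseline libraries and 4.71 to 6.86 CPM in STZ libraries, without overlap (2.48% of all genes were lower in this way). Its difference was -0.59 (SE 0.10, adjusted p = 0.00769), it passed in all 12 fits that left out 1 library, and it was -0.58 with sex as a covariate (adjusted p = 0.0524). The Slc2a10 call was also lost with podocyte (adjusted p = 0.0626), endothelial (0.107) and mesangial markers (1) as covariates and in males alone (0.497), at values of -0.77 to -0.43. Slc5a1, the sodium-glucose transporter SGLT1 of intestine and late proximal tubule, was at 19.98 to 39.3 CPM at baseline and 14.6 to 24.99 CPM after STZ (-0.64, SE 0.18, adjusted p = 0.0481), and 3 of 12 fits without 1 library kept the call (adjusted p of 0.0306 to 0.108). With the proximal tubule markers as a covariate the calls of Slc5a1 (-0.60, adjusted p = 0.0215) and Slc2a10 (-0.61, adjusted p = 0.00355) were kept. Slc5a1 differed by -0.76 with sex (adjusted p = 0.0819), -0.38 with podocyte (adjusted p = 0.483), -0.60 with mesangial (adjusted p = 1) and -1.06 with endothelial markers (adjusted p = 0.0487) as covariates, and by -0.83 in males alone (adjusted p = 0.367).

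The hexokinases and glycolytic genes (19 of 23 tested in both arms) had 2 that rose after STZ. Aldoc, aldolase C, was at 2.09 to 4.01 CPM at baseline and 3.81 to 8.87 CPM after STZ (0.77, SE 0.20, adjusted p = 0.0362). Pfkfb4, an enzyme that sets the level of fructose 2,6-bisphosphate, was at 4.75 to 7.33 CPM at baseline and 7.26 to 9.88 CPM after STZ (0.47, SE 0.12, adjusted p = 0.0386). Both calls were kept in 3 of 12 fits without 1 library (adjusted p of 0.0272 to 0.0754 for Aldoc and 0.0272 to 0.0966 for Pfkfb4), and both were lost with sex as a covariate (adjusted p = 0.160 and 0.159). Both calls were kept with the proximal tubule markers as a covariate (adjusted p = 0.00538 for Aldoc and 0.0253 for Pfkfb4). The endothelial markers fell in the same comparison, and with them as a covariate Aldoc differed by 0.08 (adjusted p = 0.836) and Pfkfb4 by 0.35 (adjusted p = 0.267). With podocyte or mesangial markers as covariates, and in males alone, neither passed: Aldoc was at 1.20, 0.46 and 0.84, and Pfkfb4 at 0.62, 0.28 and 0.54.

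In the other 3 lists no gene passed in either pooled comparison. They were the MondoA and ChREBP factors with their glucose-induced targets (13 tested), the alpha-arrestin and thioredoxin genes (7 tested) and the genes of pyruvate entry into mitochondria (11 tested). Their medians after STZ were -0.12, -0.03 and 0.06. The smallest p after STZ belonged to Acly, ATP citrate lyase of fat synthesis (-0.23, adjusted p = 0.0813), to Txnrd1, thioredoxin reductase (0.35, adjusted p = 0.0573), and to Pdk3, a second kinase of pyruvate dehydrogenase (0.33, adjusted p = 0.0963).

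**Figure D5:**
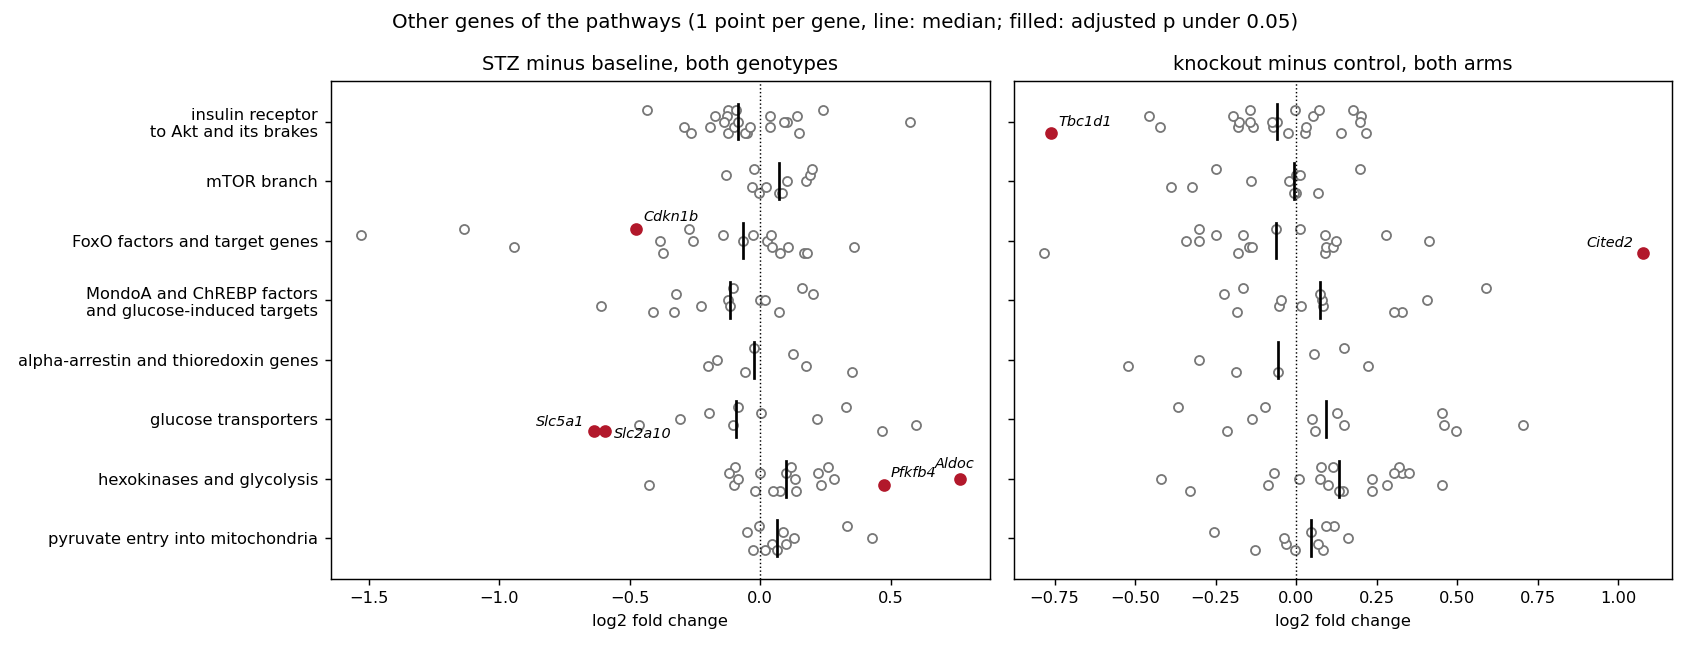
Log2 fold change (horizontal axes) of the other pathway genes, 1 point per gene in 8 lists, with the list median as a line, for STZ minus baseline and for knockout minus control. Filled points passed an adjusted p of 0.05: 5 genes on the left and 2 on the right, where Cited2 is at 1.08 and Tbc1d1 at -0.76.

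The genes whose pattern over the 12 libraries was most like that of Foxo1, by Pearson's r of log2 CPM, were Srms (0.980), Prag1 (0.960), Lamb1 (0.953), Arg1 (0.948) and Cav2 (0.945). Those most like Insr were Rasal2 (0.964), Haus5 (0.957), Crtc3 (0.952), Sult1a1 (0.943) and Mbnl2 (0.941). The 5 nearest to Foxo1 were all lower after STZ and passed there, with log2 differences from -1.43 for Arg1 to -0.60 for Cav2. Foxo1 itself was lower in every STZ library, so genes chosen for likeness to it largely had to be lower there as well. None of the 5 nearest to Insr passed. The libraries behind these values share arm, depth and RNA makeup, so they describe a shared pattern over 12 libraries and no more.

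Exons of 6 members overlap a gene on the opposite strand, and the strand handling of the counts is not given in the sources used here. The overlaps covered 2822 exon bases in Irs1 (Gm9747), 674 in Foxo1 (Gm20402), 606 in Txnip (Gm15441), 162 in Irs2 (9530052E02Rik), 157 in Hk1 (Hk1os) and 105 in Slc2a1 (Gm12868). Of these partners only Gm15441 was listed, in the STZ tables. Without strand, reads of a member and of its partner cannot be told apart.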

How the data were processed

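Each library had its own table of values per gene symbol. They are estimated counts as deposited by the authors, without further normalization: 10.5% to 11.5% of the values in a library end in 0.5, and they were rounded to whole numbers here, with blank values taken as 0. BWA and mm10 stand in the submitters' processing notes, and the counting tool and strand handling were not given in the sources used here. Low genes were removed with filterByExpr, library sizes were scaled by TMM, and each comparison was a quasi-likelihood test in edgeR 4.0.16 (R 4.3.3), Benjamini-Hochberg adjusted over all genes. Alternatives were DESeq2 1.42.0, RLE size factors, no filter, covariates and leaving out each library. Replicates are different mice, and each library was counted once. Between any pair of a group the counts differed by a chi-square of 42.0 or more per degree of freedom, so no library was a repeat run of another. That value does not by itself show that the mice differ. Of 16298 symbols 97.1% matched RefSeq (GRCm38.p6). Exon lengths are from GENCODE.

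The members and lists were chosen with earlier results of these data known. All 10 members are named, with each called gene of the pathway lists or, where none was called, the smallest p; Pck1 and G6pc were named after their values were seen. In simulated counts for STZ with genotype as a term (13475 genes), 40.3%, 76.1% and 95.5% of changes of 1.5, 2 and 4-fold were recovered, and for the knockout at baseline (13474 genes) 2.99%, 20.9% and 92.4%.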

Additional observations from a re-analysis of the deposited data

How the results depend on the processing

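RLE size factors and no filter on low counts changed no call of a member. Over 938 alternative values of 64 gene results, 847 kept their direction and call, 70 turned sign, 7 gained and 14 lost a call, and no value that had passed turned sign. The marker covariates other than proximal tubule, the fits of males only and all alternatives for pathway genes were chosen after seeing the data. Of the 169 values for called pathway genes 99 kept the call and 70 lost it.

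Members called: for the knockout after STZ 1 with DESeq2 and 1 with proximal tubule markers as a covariate (Irs2 in both); for STZ in controls 1 with DESeq2; for STZ in knockouts 1 with DESeq2 and 1 with proximal tubule markers; for STZ over both genotypes 2 with DESeq2, 2 with proximal tubule markers, and 0 with endothelial markers, mesangial markers or males only; for the knockout over both arms 0 with podocyte markers or males only, and 0 to 1 without 1 library.

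Signs turned for the knockout at baseline with proximal tubule markers (Hk1 -0.027, Insr 0.086), for the knockout after STZ with sex (Arrdc4 -0.11, Hk2 -0.051), and for STZ in controls for Irs2 (0.11 with proximal tubule markers, 0.21 with sex). For STZ over both genotypes they turned with sex (Irs1 0.0028, Irs2 0.038), podocyte markers (Arrdc4 -0.17), endothelial markers (Insr 0.057, Irs2 0.50, Txnip 0.25), mesangial markers (Txnip 0.22) and males only (Arrdc4 -0.17, Irs2 0.15). For the knockout over both arms they turned with podocyte markers (Arrdc4 0.022, Insr 0.11) and endothelial markers (Insr 0.0088, Slc2a1 -0.019, Txnip 0.0034).

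Ranges over fits without 1 library that crossed 0 were, for the knockout at baseline, Hk1 -0.048 to 0.068, Insr -0.58 to 0.18 and Pdk4 -0.11 to 0.33; after STZ, Arrdc4 -0.11 to 0.10, Foxo1 -0.074 to 0.029, Hk2 -0.051 to 0.16 and Txnip -0.24 to 0.11. For STZ in controls they were Arrdc4 -0.27 to 0.14, Irs2 -0.29 to 0.40, Pdk4 -0.082 to 1.11 and Txnip -0.32 to 0.0080, and in knockouts Irs2 -0.55 to 0.13 and Txnip -0.23 to 0.074. For the interaction they were Insr -0.49 to 0.28, Irs2 -0.75 to 0.14 and Txnip -0.10 to 0.26. For STZ over both genotypes they were Irs1 -0.12 to 0.11, Irs2 -0.32 to 0.057, Pdk4 -0.26 to 0.33 and Slc2a1 -0.14 to 0.065, and for the knockout over both arms Arrdc4 -0.21 to 0.0027 and Slc2a1 -0.10 to 0.10. The cause was not tested.

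Calls over all genes moved by more than 1.5 times in every comparison with DESeq2, and in some with the other settings. With RLE size factors they moved less, from 1169 to 1029 for STZ over both genotypes and from 380 to 368 for the knockout over both arms. The 31 for the knockout at baseline were 220 with DESeq2, 61 with proximal tubule markers, 10 with sex and 4 to 51 without 1 library; the 175 after STZ were 566, 332, 63 and 40 to 109. The 31 for STZ in controls were 410, 47, 6 and 4 to 12; the 24 in knockouts 804, 307, 9 and 1 to 10; the 1 interaction 31, 0, 0 and 0 to 2. The 1169 for STZ over both genotypes were 1817, 2354, 261 and 501 to 1113, and 219 with podocyte, 668 with endothelial and 7 with mesangial markers and 7 in males. The 380 for the knockout over both arms were 696 with DESeq2, 66 in males and 268 to 425 without 1 library.

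The baseline libraries hold a lower count per gene than the STZ libraries. In simulated counts, comparisons of 3 mice against 3 recovered 19.4% to 41.8% of 2-fold changes, and the interaction recovered 8.96%. Most changes of 2-fold or less were thus not recoverable in those comparisons. No paired analysis was possible because the replicate numbers follow accession order.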
